A study of Homo sapiens with 3 samples.

Results

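Transcript levels of 10 aldehyde dehydrogenase genes were examined in the oral squamous cell carcinoma (OSCC) line CAL27 and in a pair of drug-resistant lines made from it. The 10 genes (ALDH1A1, ALDH1A3, ALDH1B1, ALDH2, ALDH3A1, ALDH3A2, ALDH3B1, ALDH3B2, ALDH4A1 and ALDH7A1) are part of a superfamily of 19 human genes, and all 10 were found by gene symbol among the 19220 genes of the count table. The list was chosen from the superfamily with measured values of these libraries known, among them the fall of ALDH3B2 in the oxaliplatin-resistant line, so its differences are given as a description and none was tested. Parental CAL27 cells (labelled genotype WT) were grown drug-free, CAL27/5FU cells (5-fluorouracil resistant) in 10 μM 5FU, and CAL27/OXA cells (oxaliplatin resistant) in 10 μM OXA. All 3 were kept in high-glucose DMEM with fetal bovine serum, and total RNA was sequenced. 5FU is an antimetabolite that blocks thymidylate synthesis, and OXA is a platinum drug that crosslinks DNA. CAL27/5FU was derived by raising the drug concentration over about a year, whereas the selection of CAL27/OXA is not given in the sources used here. Each resistant line is a single derivative of 1 parental line, and the 1 library per line that the labels describe was used, so no difference below has a replicate check.

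Aldehyde dehydrogenases oxidize aldehydes to carboxylic acids with NAD or NADP as cofactor. Some members make retinoic acid from retinaldehyde, some clear acetaldehyde or the aldehydes left by lipid peroxidation, and some complete steps of amino acid breakdown in mitochondria. High aldehyde dehydrogenase activity is widely used to sort stem-like cells from carcinomas, and several members can oxidize drug-derived aldehydes.

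The libraries held 37297713 to 43455488 counts. All 10 genes passed the low-count filter, which asked for 10 counts or more on average, as did 13676 genes in all. Counts were scaled with TMM factors, and a gene was called when its log2 ratio, computed with a prior count of 2, was past 2-fold. Brackets give exact Clopper-Pearson 95% intervals of a ratio, which cover counting error only. FPKM (fragments per kilobase of transcript, scaled to library size) are the authors' values and are used for levels between genes. The epithelial identity of the cells was visible in all 3 libraries, with 12 of 12 squamous epithelial markers above 3 counts. Of 6 fibroblast markers 3 to 5 were above 3 counts, with summed levels of 41.1 to 48.4 CPM, mostly from COL1A1 and LUM, and COL3A1 had 0 counts throughout. Of 6 leukocyte markers 3 to 4 were above 3 counts, with summed levels of 8.69 to 34.0 CPM, mostly from CD14, and PTPRC had 0 to 2 counts. Of 4 endothelial markers 3 to 4 were above 3 counts, with summed levels of 2.57 to 9.35 CPM. The summed squamous markers were at 16470 CPM in CAL27, 4564 CPM in CAL27/5FU and 5917 CPM in CAL27/OXA. Of the 12, 8 and 7 were called lower in the resistant lines, beside 6.72% and 9.28% of all tested genes. KRT14 and PKP1 were among those lower in both, and KRT5 alone made up 7345 of the 16470 CPM in CAL27. Because these are bulk libraries, fewer cells that express a gene and less RNA of it per cell cannot be told apart.

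In CAL27/5FU, 1 of the 10 aldehyde dehydrogenases was called higher (ALDH1A3) and 1 lower (ALDH3B2). Over all tested genes, 8.46% were called higher and 6.72% lower in that comparison. In CAL27/OXA, ALDH1A1 was called higher and ALDH3B1 and ALDH3B2 lower, beside 6.54% higher and 9.28% lower over all tested genes. The other members were within 2-fold of CAL27 in both lines. Scaling by total counts instead moved the calls over all genes in CAL27/5FU from 1157 higher and 919 lower to 1432 and 699. With TMM the 10 genes had a median log2 ratio of -0.08 in CAL27/5FU, beside -0.0035 over all tested genes. With total counts these medians were 0.0865 and 0.1665, again lower for the 10 genes. With TMM the median in CAL27/5FU was 0.39 over the 8 other tested genes of the superfamily and -0.0025 over all 18 tested. The place of the 10 genes beside the background thus depends on which genes were listed. In CAL27/OXA the median of the 10 genes with TMM was 0.20, beside 0.0055 over all tested genes and -0.026 over the 18 of the superfamily. Both comparisons use the same CAL27 library.

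**Figure D1:**
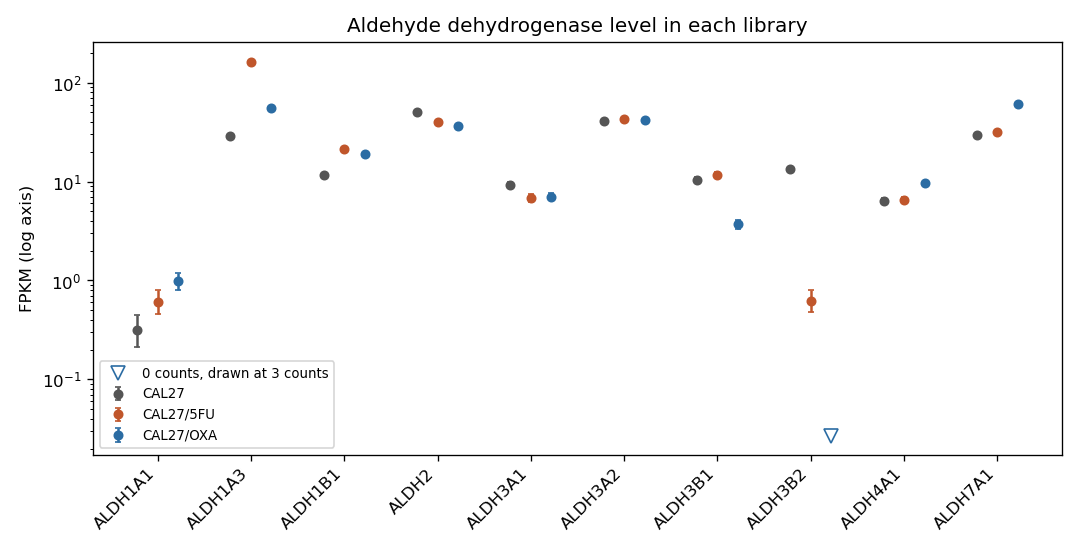
FPKM (log axis) of each of the 10 aldehyde dehydrogenases in the CAL27, CAL27/5FU and CAL27/OXA libraries, with bars for the exact Poisson 95% interval of the count and an open triangle at the value of 3 counts where 0 were found. ALDH1A3 is highest in CAL27/5FU at 162.5 FPKM, and ALDH3B2 goes from 13.4 FPKM in CAL27 to 0 counts in CAL27/OXA.

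The members with the largest falls in CAL27/OXA were the ALDH3B pair. ALDH3B1 encodes a membrane-attached enzyme that acts on medium and long-chain aldehydes, and ALDH3B2 is mainly known from epithelia. The longest complete coding sequence of ALDH3B2 is the shorter of the pair (1158 and 1407 bases), and its enzyme activity was not examined here. ALDH3B2 had 1436 counts in CAL27, 60 counts in CAL27/5FU and 0 counts in CAL27/OXA. The level was thus high in the parental library, low in CAL27/5FU and under detection in CAL27/OXA, with no overlap of the counting intervals (1363 to 1512, 45.8 to 77.2 and 0 to 3.69 counts). Against CAL27, the log2 ratio in CAL27/5FU was -4.54 (-4.99 to -4.22), which is 23.3-fold lower. In CAL27/OXA the gene was at least 546-fold lower, taking 3 counts as the floor of that library, and the exact interval of the log2 ratio, which allows 3.69 counts, ended at -8.79. It had the lowest ratio of all 13676 tested genes there, which is the value the list was built around, and was the 50th lowest in CAL27/5FU.

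ALDH3B1 had 1198 counts in CAL27, 1198 counts in CAL27/5FU and 438 counts in CAL27/OXA. CAL27/5FU had a log2 ratio to CAL27 of -0.0069 (-0.12 to 0.11), or 0.16 when scaled by total counts, and CAL27/OXA stood apart below both. The log2 ratio of CAL27/OXA to CAL27 was -1.64 (-1.80 to -1.48), a 3.11-fold fall. In FPKM, ALDH3B2 was above ALDH3B1 in CAL27 (13.4 and 10.5) and below it in CAL27/5FU (0.625 and 11.7).

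The pair are close copies of each other, which bears on how reads were assigned. Their coding sequences (GENCODE 29 transcripts of GRCh38, the longest complete coding sequence of each) were identical at 86.8% of 1158 aligned bases. This was the highest identity among the 10 genes, followed by ALDH1B1 with ALDH2 at 72.0%. Of the 50-base words of the ALDH3B2 coding sequence, 35 of 1109 also occurred in ALDH3B1, and of the 100-base words 0 of 1059 did. The read length and the treatment of multiply mapped reads are not given in the sources used here. The 120 bases around the longest identical run are shown as a place where reads of the pair could be exchanged. Some of the shared 50-base words lie elsewhere in the coding sequences. The printed stretch covers coding bases 759 to 878 of ALDH3B1 and 516 to 635 of ALDH3B2, written 5′ to 3′. Capitals mark the 3 bases that differ, and the longest identical run within the stretch is 64 bases.
ALDH3B1: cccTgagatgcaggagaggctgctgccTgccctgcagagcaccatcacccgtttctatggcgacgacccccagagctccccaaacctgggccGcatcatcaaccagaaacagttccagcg
ALDH3B2: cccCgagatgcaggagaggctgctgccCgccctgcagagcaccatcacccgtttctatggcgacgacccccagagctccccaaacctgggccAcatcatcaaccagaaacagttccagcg

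The pair also lie near each other on chromosome 11 of GRCh38, ALDH3B2 at 67662162 to 67681200 on the minus strand and ALDH3B1 at 68008578 to 68029282 on the plus strand, with a gap of 327 kb. Between them 1 tested gene was placed, UNC93B1, an endosomal trafficking factor for Toll-like receptors, which had log2 ratios of 0.35 and -0.74 in the 5FU-resistant and OXA-resistant lines. On the other side the nearest tested gene was ACY3, an aminoacylase, 11.5 kb away. It had 104, 39 and 26 counts in CAL27, CAL27/5FU and CAL27/OXA and was called lower in both resistant lines (log2 ratios of -1.38 and -2.10). The 5 nearest tested genes on each side of ALDH3B2, ALDH3B1 included, had a median log2 ratio of -0.33 in CAL27/5FU and -0.59 in CAL27/OXA. Over all tested genes the medians were -0.0035 and 0.0055. In CAL27/OXA 3 of these 10 neighbours (ACY3, NUDT8 and ALDH3B1 itself) were called lower and 0 higher, beside 9.28% and 6.54% over all tested genes. All 10 had counts in CAL27/OXA, from 26 for ACY3 to 48387 for GSTP1. NDUFS8, next to ALDH3B1, had a log2 ratio of -0.02 in CAL27/OXA. Whether position had a part in the falls was not tested.

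**Figure D2:**
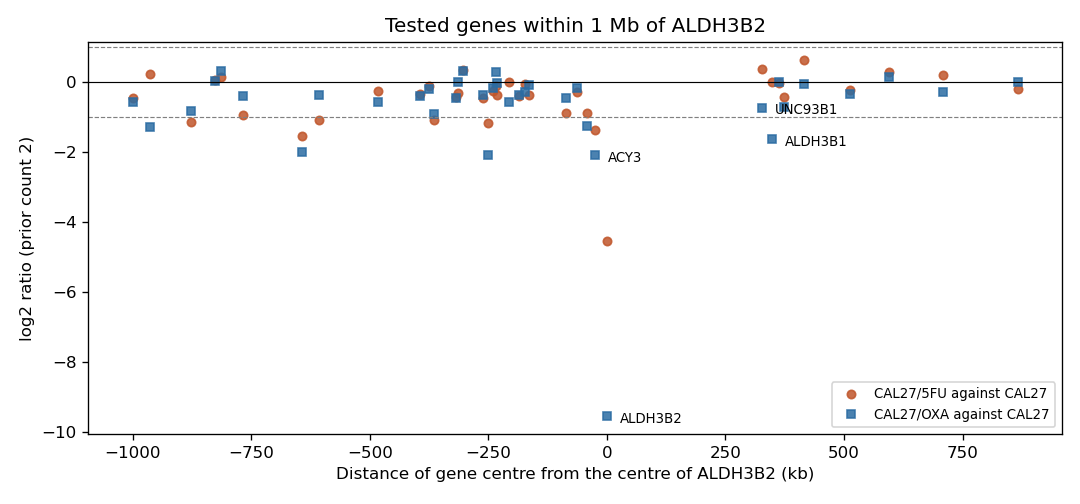
Log2 ratios (computed with a prior count of 2) of the tested genes within 1 Mb of ALDH3B2, against the distance in kb of the gene centre from the centre of ALDH3B2, for CAL27/5FU (circles) and CAL27/OXA (squares) against CAL27. Dashed lines mark 2-fold. ALDH3B2 lies far below its neighbours, and its CAL27/OXA point rests on 0 counts and so on the prior count.

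The genes whose pair of log2 ratios was nearest to that of ALDH3B2, by Euclidean distance over the 3 libraries and among the 11541 genes that averaged 100 counts or more, were ACKR3, RBBP8NL, TMPRSS13, LY6D and GJB6. ACKR3, an atypical chemokine receptor, was the nearest with 1709, 75 and 5 counts in CAL27, CAL27/5FU and CAL27/OXA. TMPRSS13, a membrane serine protease of stratified epithelia, had 333, 30 and 0 counts. GJB6, a gap junction protein of the epidermis, had 1113, 15 and 10 counts. The distances ran from 1.47 to 3.22 log2 units, and they depend on the prior count, because ALDH3B2 had 0 counts in CAL27/OXA. With 3 libraries this likeness is a description of 3 points. The summed squamous markers were lower in the same libraries as ALDH3B2 (levels above), but not every marker was. EPCAM had log2 ratios of 0.40 and 0.03 in CAL27/5FU and CAL27/OXA. TP63 and SFN had 0.13 and 0.08 in CAL27/OXA but were called lower in CAL27/5FU, at -1.28 and -1.08. The part of these markers in the fall of ALDH3B2 was not tested.

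The cytosolic retinaldehyde dehydrogenases ALDH1A1 and ALDH1A3 were the members called higher. ALDH1A3, which makes retinoic acid in epithelia and lies on chromosome 15 at 100877714 to 100916626 (plus strand), had 4123 counts in CAL27, 20897 counts in CAL27/5FU and 8364 counts in CAL27/OXA. It was highest in CAL27/5FU and intermediate in CAL27/OXA. The log2 ratio to CAL27 was 2.33 (2.29 to 2.38) in CAL27/5FU, a 5.04-fold rise that ranked 277 from the highest of 13676 genes. In CAL27/OXA the log2 ratio was 0.83 (0.78 to 0.89), or 1.78-fold, and was not called. Its neighbourhood on chromosome 15 (the 5 nearest tested genes on each side) had medians of 0.11 and 0.0085 in these comparisons. The closest gene, LRRK1, had 0.70 and 0.19.

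ALDH1A1, a retinaldehyde dehydrogenase used as a marker of stem-like carcinoma cells, was at a much lower level, with 31 counts in CAL27, 54 counts in CAL27/5FU and 102 counts in CAL27/OXA. This is 0.313, 0.611 and 0.991 FPKM, against 28.6, 162.5 and 55.8 FPKM for ALDH1A3. The log2 ratio was 0.76 (0.13 to 1.48) for CAL27/5FU. That of CAL27/OXA was 1.47 (0.94 to 2.16), whose interval reached below 2-fold. With a pseudocount of 1 FPKM the latter was 0.60 and was no longer called. ALDH1A2, the third retinaldehyde enzyme of the family, had 0 counts throughout, so a level of up to 3 counts per library cannot be told from 0.

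The RefSeq promoter table (GRCh38.p14) held a start for 7 of the 10 genes (not ALDH2, ALDH3A1 or ALDH3B2). The bases before the start are shown for ALDH1A1 and ALDH3B1, which were called in CAL27/OXA in opposite directions and whose windows held at most 3 bases of GENCODE exons, left out here. The ALDH1A1 stretch is chr9:72953057-72953303 on the minus strand, and that of ALDH3B1, the first of its starts in the table, is chr11:68008297-68008546 on the plus strand, both 5′ to 3′. Both strands were searched for 6 motifs, each also counted in 27305 windows of 250 bases. TATAAA occurred in 11.1% of the windows. CCAAT occurred in 33.0%, and GGGCGG in 42.3%. GCGTG was found in 31.9%. The AP-1 motif TGANTCA was found in 6.6%. The antioxidant response motif TGACNNNGC was found in 3013 of the windows. Matches of different motifs may overlap. Capitals mark the 1 match, a CCAAT of ALDH1A1, and the ALDH3B1 window held 0 matches. The window of the other ALDH3B1 start in the table, at 68010077 to 68010326, held 2 GGGCGG matches and 11 CpG and is not printed. The GC content was 38.4% and 63.6%, with 6 and 3 CpG, beside medians of 58.0% and 11 over all windows. A match of letters is a description and not a binding site.
ALDH1A1: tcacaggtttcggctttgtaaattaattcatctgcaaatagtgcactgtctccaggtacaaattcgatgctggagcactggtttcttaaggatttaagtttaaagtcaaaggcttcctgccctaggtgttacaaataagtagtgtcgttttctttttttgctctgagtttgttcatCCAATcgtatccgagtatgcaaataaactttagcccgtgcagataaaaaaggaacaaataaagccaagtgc
ALDH3B1: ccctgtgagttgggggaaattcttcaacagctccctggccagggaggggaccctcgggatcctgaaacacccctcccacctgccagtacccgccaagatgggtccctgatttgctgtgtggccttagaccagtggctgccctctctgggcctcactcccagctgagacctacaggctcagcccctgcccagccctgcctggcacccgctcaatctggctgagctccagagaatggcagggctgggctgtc

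The retinoid genes around the retinaldehyde step were followed as a list of 21, of which 17 were tested. In CAL27/5FU 6 were called higher and 2 lower, and in CAL27/OXA 2 were called higher and 2 lower, beside 8.46% and 6.72%, and 6.54% and 9.28%, over all tested genes. The list medians were 0.20 and -0.44. STRA6, the membrane importer of retinol, had 246, 585 and 2 counts in CAL27, CAL27/5FU and CAL27/OXA, with log2 ratios of 1.24 (1.03 to 1.46) and -6.08 (-10.2 to -5.26). CRABP2, which carries retinoic acid to its receptors, and DHRS9, a retinol dehydrogenase, rose in CAL27/5FU with log2 ratios of 2.22 and 2.11 and had 0.32 and 0.33 in CAL27/OXA. CYP26B1, which degrades retinoic acid, was called higher in both, at 1.15 and 2.47. DHRS3, which turns retinaldehyde back to retinol, had 0.20 in CAL27/5FU and fell in CAL27/OXA by 1.74 on the log2 scale. The retinoid receptor genes RARG and RXRA were those called lower in CAL27/5FU, at -1.08 and -1.05. RARB went the other way, with 9, 45 and 28 counts. It was called higher in both lines, at 2.10 (1.26 to 3.53) and 1.28 (0.32 to 2.72). CYP26A1, with 7, 20 and 4 counts, was called higher in CAL27/5FU at 1.29 (0.21 to 2.99).

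**Figure D3:**
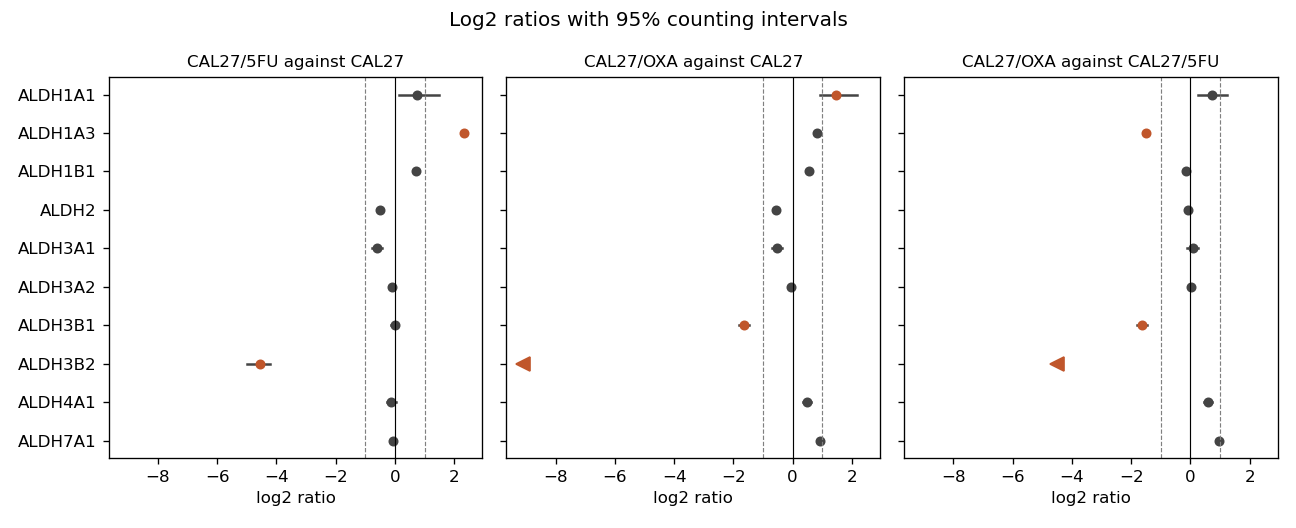
Log2 ratios of the 10 aldehyde dehydrogenases in the 3 comparisons, with 95% counting intervals. Dashed lines mark 2-fold, points in colour are called, and left-pointing triangles show the ratio at 3 counts for ALDH3B2, which had 0 counts in CAL27/OXA. Most members lie within the dashed lines, with ALDH3B2 on the far left of every panel.

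The mitochondrial acetaldehyde enzymes ALDH2 and ALDH1B1 had ratios of opposite sign. ALDH2, the main enzyme of acetaldehyde clearance, had 4152, 2944 and 3177 counts in CAL27, CAL27/5FU and CAL27/OXA. It was lower in both resistant libraries, with log2 ratios of -0.50 (-0.57 to -0.43) and -0.58 (-0.64 to -0.51). ALDH1B1, its close relative, had 1494, 2436 and 2511 counts, which is higher in both, with log2 ratios of 0.70 (0.60 to 0.79) and 0.56 (0.47 to 0.65). Neither gene passed 2-fold in either line. In FPKM, ALDH2 was above ALDH1B1 in every library, at 49.9 and 11.6 in the parental line, 39.7 and 21.3 in the 5FU-resistant line and 36.7 and 18.8 in the OXA-resistant line.

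ALDH3A1 and ALDH3A2, neighbours 60 kb apart on chromosome 17, were within 2-fold. ALDH3A2, the fatty aldehyde dehydrogenase of the endoplasmic reticulum, had 6366, 5965 and 6916 counts, and its log2 ratios of -0.10 and -0.07 changed sign under scaling by total counts. ALDH3A1, an inducible enzyme known from cornea and from oxazaphosphorine resistance, had 683, 455 and 543 counts, lower in both resistant libraries with log2 ratios of -0.59 (-0.77 to -0.42) and -0.52 (-0.69 to -0.36). The gene that lies between them, SLC47A2, an organic cation exporter, was called lower in both lines (-1.65 and -1.54).

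The listed mitochondrial enzymes of amino acid breakdown were ALDH7A1 and ALDH4A1. ALDH7A1, which oxidizes the semialdehyde of lysine breakdown and betaine aldehyde, lies on chromosome 5 at 126531200 to 126595418 (minus strand). It had 6060 counts in CAL27, 5809 counts in CAL27/5FU and 12972 counts in CAL27/OXA. CAL27/OXA was alone in being high. Its log2 ratio to CAL27 there was 0.91 (0.86 to 0.95), or 1.88-fold and just short of a call, and scaling by total counts took it past 2-fold at 1.04. The ratio in CAL27/5FU was -0.07 (-0.12 to -0.02) and became 0.10 under that scaling. The 5 nearest tested genes on each side of ALDH7A1 had a median log2 ratio of 0.50 in CAL27/OXA and 0.19 in CAL27/5FU. They reached out to 3501.8 kb on the lower-coordinate side and 922.2 kb on the other. In CAL27/OXA 2 of these 10 genes were called higher (CEP120 and SNX24, which lie 3107.6 and 3501.8 kb away) and 0 lower. Over all tested genes 6.54% were called higher and 9.28% lower there, and the medians were 0.0055 in CAL27/OXA and -0.0035 in CAL27/5FU. The nearest gene, PHAX, an RNA export adaptor 4.8 kb away, had 1562, 1821 and 3103 counts and a log2 ratio of 0.80 in CAL27/OXA. The part of these neighbours' shift in the ALDH7A1 value was not tested. A share of 21.7% of the 50-base words of its coding sequence, and 4.09% of the 100-base words, also occurred in the pseudogene ALDH7A1P1.

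ALDH4A1, which oxidizes the semialdehyde of proline breakdown, had 805, 746 and 1279 counts, with log2 ratios of -0.12 (-0.26 to 0.03) in CAL27/5FU, which became 0.05 when scaled by total counts, and 0.48 (0.35 to 0.61) in CAL27/OXA. The counting of ALDH4A1 and of ALDH2 is uncertain, because 86.4% and 42.1% of their 50-base words also belong to overlapping same-strand genes of GENCODE 29, AL080251.1 and AC002996.1, which the count table does not list. ALDH1A3 and ALDH3A1 overlap antisense exons, and the strandedness of the counting is not stated. ALDH1A3 also overlaps exons of a same-strand gene that the count table does not list, AC015712.5, which holds 16 of its 1490 words of 50 bases.

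The enzymes that supply these substrates were read from a list of 8, of which 7 were tested. In CAL27/5FU 1 was called higher and 1 lower, beside 8.46% and 6.72% over all tested genes. In CAL27/OXA 2 were called higher and 4 lower, beside 6.54% and 9.28%. PRODH, the first step of proline breakdown before ALDH4A1, had 402, 20 and 23 counts and fell in both lines, with log2 ratios of -4.21 (-5.06 to -3.69) and -4.19 (-4.99 to -3.71). AASS, the first step of lysine breakdown before ALDH7A1, had 950, 1775 and 3272 counts, with log2 ratios of 0.89 (0.78 to 1.01) in CAL27/5FU and, past 2-fold, 1.59 (1.49 to 1.70) in CAL27/OXA. CHDH, which makes betaine aldehyde, had 37, 57 and 105 counts and was called higher in CAL27/OXA at 1.27 (0.76 to 1.90). PIPOX, listed for lysine breakdown as AASS is, went the other way in CAL27/OXA, with 65, 58 and 34 counts. It was called lower there at -1.08 (-1.77 to -0.50). MAOA, a monoamine oxidase whose aldehyde products ALDH2 clears, fell in CAL27/OXA with a log2 ratio of -1.13 and had -0.96 in CAL27/5FU. MAOB, the other monoamine oxidase, had 6, 25 and 0 counts and was called higher in CAL27/5FU and lower in CAL27/OXA. Its counting intervals on the log2 scale reached below 2-fold in both, starting at 0.73 in CAL27/5FU and ending at -0.43 in CAL27/OXA.

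Enzymes that reduce aldehydes were also counted. Of 10 aldehyde and carbonyl reductases, all tested, 0 were called higher and 1 lower in each resistant line, a share near that over all tested genes (6.72% and 9.28% lower). That gene was AKR1B10, an aldo-keto reductase of epithelia, with 95, 42 and 28 counts and log2 ratios of -1.15 and -1.87. AKR1B1, the aldose reductase, had the highest ratio of the list in both lines, at 0.76 and 0.32. Of 7 alcohol dehydrogenases 2 were tested and 0 called, and ADH5, which oxidizes formaldehyde bound to glutathione, had 3952, 3114 and 4474 counts.

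Of the other 9 genes of the superfamily 8 were tested. In CAL27/5FU 2 were called higher and 0 lower, and in CAL27/OXA 1 was called higher and 0 lower, beside 8.46% and 6.54% higher over all tested genes. ALDH8A1, an enzyme of tryptophan breakdown, had 2, 59 and 85 counts, with log2 ratios of 3.96 (2.96 to 7.95) and 4.29 (3.32 to 8.29). ALDH1L1, the cytosolic formyltetrahydrofolate dehydrogenase, had 14, 105 and 28 counts and rose in CAL27/5FU with a log2 ratio of 2.74 (2.09 to 3.82), while its value of 0.73 (-0.16 to 1.85) in CAL27/OXA was not called. Its mitochondrial counterpart ALDH1L2 had -0.37 and -0.66. ALDH18A1, which makes proline precursors, and ALDH9A1 were among the abundant genes, with 35.3 and 26.4 FPKM in CAL27, and had log2 ratios of 0.33 and 0.002 in CAL27/5FU.

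The order of the 10 genes by FPKM differed between the libraries. In CAL27 it was headed by ALDH2 (49.9 FPKM) and ALDH3A2 (40.5), followed by ALDH7A1 (29.8) and ALDH1A3 (28.6), whose counting intervals overlapped. ALDH1B1 and ALDH3B1, and ALDH3B1 and ALDH3A1, overlapped as well. In CAL27/5FU, ALDH1A3 was first at 162.5 FPKM, followed by ALDH3A2 at 42.5, and the overlapping neighbours were ALDH3A1 with ALDH4A1 and ALDH3B2 with ALDH1A1. In CAL27/OXA, ALDH7A1 was first at 61.3 FPKM and ALDH1A3 next at 55.8, and all neighbours in the order were apart by their intervals. ALDH3A2 kept a level of 40.5 to 42.5 FPKM throughout.

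Summed over the 19 genes, the superfamily had 288.2 FPKM in CAL27, 429.0 FPKM in CAL27/5FU and 326.7 FPKM in CAL27/OXA, of which the 10 listed genes made up 69.4%, 75.6% and 72.3%. ALDH1A3 alone was 9.93% of the sum in the parental line, 37.9% of it in CAL27/5FU and 17.1% of it in CAL27/OXA. The share of ALDH7A1 was 10.3%, 7.45% and 18.8%. These sums are on the scale of total counts, on which the middle tested gene had a log2 ratio of 0.17 (CAL27/5FU against CAL27) and 0.14 (CAL27/OXA against CAL27).

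**Figure D4:**
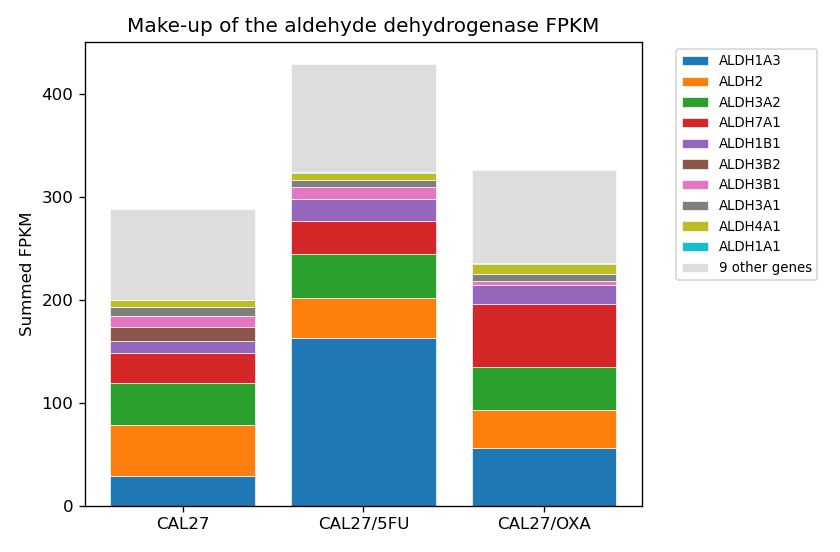
Summed FPKM of the 19 aldehyde dehydrogenases in each library, stacked by gene for the 10 listed genes and in light grey for the 9 others, 1 library per bar and hence no error bar. ALDH1A3 takes 162.5 of 429.0 FPKM in CAL27/5FU, and ALDH7A1 takes 61.3 of 326.7 in CAL27/OXA.

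The resistant lines were also set against each other, a comparison that shares both libraries with those above. In CAL27/OXA relative to CAL27/5FU, 0 of the 10 genes were called higher and 3 lower, ALDH1A3, ALDH3B1 and ALDH3B2, beside 4.18% of all tested genes called higher and 8.38% lower. ALDH1A3 had a log2 ratio of -1.50 (-1.54 to -1.47) and ALDH3B1 of -1.63 (-1.80 to -1.48). ALDH3B2 was at least 22.7-fold lower, from 60 counts to 0, with 3 counts as the floor, and the exact interval of the log2 ratio ended at -4.16. ALDH7A1 was higher by 0.98 (0.93 to 1.02) and ALDH1A1 by 0.72 (0.25 to 1.24), both short of 2-fold. ALDH2 and ALDH3A1 had -0.07 (-0.15 to 0.0001) and 0.07 (-0.11 to 0.26), so a difference between the resistant lines was not detectable for them at this depth. The median log2 ratio of the 10 genes was -0.02.

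**Figure D5:**
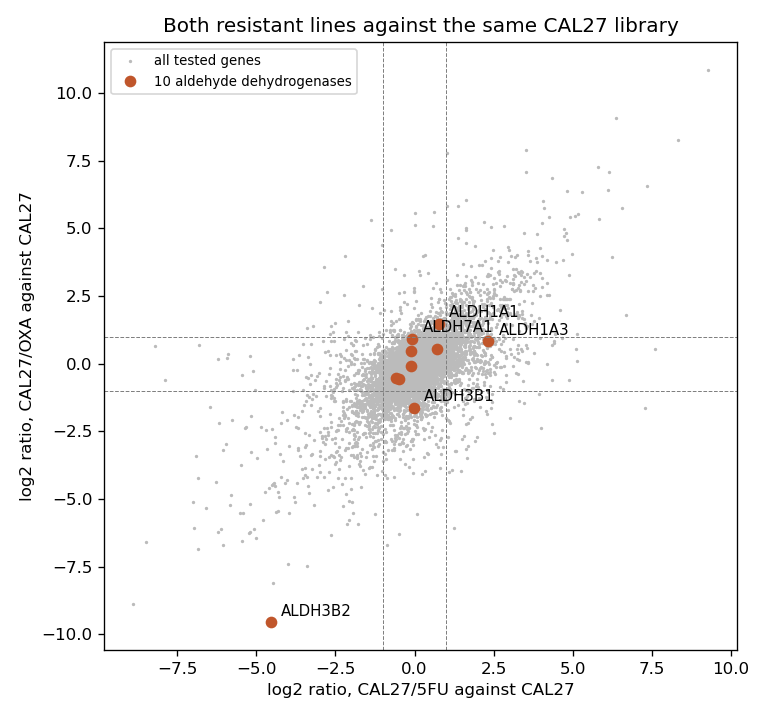
Log2 ratios of all 13676 tested genes (grey) and of the 10 aldehyde dehydrogenases (coloured) in CAL27/5FU (x axis) and CAL27/OXA (y axis), each against the same CAL27 library, so the axes share it. Dashed lines mark 2-fold. ALDH3B2 is at the lower edge, ALDH1A3 to the right, and ALDH3B1 is low on the y axis alone.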

How the data were processed

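RNA-seq of 3 libraries was used, 1 each for CAL27, CAL27/5FU and CAL27/OXA. The tables the authors deposited list unnormalized read counts for 19220 gene symbols and FPKM for 19225. FPKM, counts and total counts gave a single gene length within 0.1% for 12391 of 12391 genes with at least 20 counts in each library, so the FPKM values are scaled by total counts. The submitters' processing notes name CASAVA 1.8, HISAT2 2.0.5 and GRCh38. The counting tool, the annotation and the strandedness are not given in the sources used here. A further 3 columns of per-sample values in each table are named as number 2 of the same 3 lines. The labels used here describe no such samples, so these columns were not used, and the lack of replicates lies in this choice.

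Counts were scaled with TMM factors (edgeR 4.0.16 in R 4.3.3), and log2 ratios used a prior count of 2. The depth of 37297713 to 43455488 counts sets 3 counts, the floor, at 0.0675 to 0.0770 CPM. The study's 2-fold threshold was kept. With 1 library per line, no p-value was computed, and intervals are exact (SciPy 1.17.1) and cover counting error only. The calculation was tested on simulated data. Alternatives were DESeq2 1.42.0 size factors, total counts, upper quartile, other filters, prior counts, FPKM and a 4-fold threshold. Coding sequences were aligned with Biopython 1.88.

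The members and lists were chosen with earlier results of these data known. Named are the members, the list genes, the 5 genes nearest to ALDH3B2 in their ratios, and the nearest tested neighbours. Among list genes and neighbours, those given as examples were picked after their values were seen.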

Additional observations from a re-analysis of the deposited data

Results flagged for a closer look

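ALDH4A1 and ALDH7A1 had log2 ratios of opposite sign in the resistant lines. ALDH4A1 had -0.12 in CAL27/5FU and 0.48 in CAL27/OXA, a difference of 0.59, and ALDH7A1 had -0.07 and 0.91, a difference of 0.98. With 1 library per line the differences were not tested. The negative values in CAL27/5FU became 0.05 and 0.10 under scaling by total counts.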

How the results depend on the processing

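No paired analysis was possible because 1 library per line was used (the columns named as number 2 match no label), so the lines share a single replicate number and none can be left out. Across 10 alternatives and 3 comparisons, the number of listed genes past 2-fold stayed within 1.5 times its reported value except at 4-fold. There it was 1 in CAL27/OXA against CAL27 and 1 in CAL27/OXA against CAL27/5FU, and stayed at 2 in CAL27/5FU against CAL27. Between 2-fold and 4-fold lay ALDH1A1 (1.47) and ALDH3B1 (-1.64) in CAL27/OXA against CAL27, and ALDH1A3 (-1.50) and ALDH3B1 (-1.63) in CAL27/OXA against CAL27/5FU. The median log2 ratio of the 10 genes in CAL27/5FU was 0.0865 with total counts, 0.084 with FPKM and a pseudocount of 1, and 0.0862 with a pseudocount of 0.1, and thus positive where it was negative with TMM. In CAL27/OXA these settings gave 0.3366, 0.3015 and 0.3333. All of them scale by total counts. Over all tested genes, they gave medians of 0.1665, 0.1227 and 0.1617 in CAL27/5FU, and of 0.138, 0.0964 and 0.1327 in CAL27/OXA. Of 270 values for single genes, 19 changed sign, all of genes within 2-fold. A call was gained in 3, each of them ALDH7A1 in CAL27/OXA (1.04 with total counts, 1.02 and 1.04 with FPKM), and lost in 2, both with a pseudocount of 1 FPKM: ALDH1A1 in CAL27/OXA (0.60) and ALDH3B2 in CAL27/OXA against CAL27/5FU (-0.70). Among all genes, scaling by total counts moved the numbers called in CAL27/5FU from 1157 higher and 919 lower to 1432 and 699, and in CAL27/OXA from 894 and 1269 to 1100 and 1052. With FPKM and a pseudocount of 1, 503 and 311 genes were called in CAL27/5FU, 368 and 481 in CAL27/OXA, and 165 and 437 in CAL27/OXA against CAL27/5FU (571 and 1146 as reported). Without the filter the numbers were 1899 and 1555, 1348 and 1925, and 981 and 1861, with a mean of 50 counts 760 and 655, 608 and 951, and 369 and 794, and at 4-fold 404 and 286, 296 and 412, and 167 and 352. ALDH1A1, with 31 to 102 counts, is the listed gene whose ratio the depth limits most besides ALDH3B2.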
